A study of Mus musculus with 36 samples.

Results

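Sox10, Zeb2, Hand2, Foxd3, Tcf4, Pax3 and Sox2 are transcription factor genes that act in the neural crest and in the enteric precursor cells (EPCs) derived from it. They were followed in a PAX6 ChIP-seq data set as named genes, 7 of the 22350 protein-coding genes that the GENCODE M1 annotation places on chromosomes 1 to 19 and X of the mm9 build. Every peak whose centre lay in one of the 7 gene bodies or within 100 kb of it was sought, and for a gene without such a peak the distance from the gene body to the closest peak centre was taken. The genes were chosen by name and not by a threshold on a measured value.

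The chromatin came from EPCs of the ganglionic gut of CD1 mice at postnatal day 7, cultured as neurosphere-like bodies (NLBs), floating clumps in which precursors and more mature cells are mixed. Of the 36 libraries, 16 were immunoprecipitated with an antibody against PAX6, in pool 1 (4 libraries), pool 2 (6) and pool 3 (6). Another 16 libraries were input, as many per pool as the PAX6 libraries, and 4 were mouse IgG, the negative control, all with the label of pool 1. No mutant or treated cells were included, so the comparison made here is between chromatin bound by the PAX6 antibody and by IgG in the same kind of cell. The paper states that peaks overlapping those of IgG with respect to input were left out of its own analysis. The lists used here still held such overlaps. The lists held 491, 1032 and 724 peaks in PAX6 pools 1, 2 and 3, and 1007 peaks in IgG. The libraries of a pool were merged before peaks were called, which leaves the 3 pools as the only replicates and the spread between libraries unknown. Each peak carries a score, minus 10 times the log10 of its p-value from the peak caller MACS, and the lowest was 50.04. The lists give no read counts, and those in the paper are not split by pool, so the depth of each list is unknown. Since the score depends on depth, a peak was ranked only within its own list, with rank 1 the highest score. An exact permutation test of 3 pools against 1 IgG list cannot go below p = 0.25, and no test was run. Whether the cultures expressed the 7 genes, or PAX6, was not measured by these lists. The paper cites earlier work of its authors that found PAX6 mRNA and protein in EPCs.

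The enteric nervous system arises from neural crest cells that enter the gut and spread along it, dividing as they go, and then become neurons and glia. SOX10 holds these cells in a progenitor state and marks the glia later on, and together with PAX3 it activates Ret, the receptor gene that the migrating cells depend on. PAX6 is a paired box factor best known from the eye, the brain and the pancreas. It binds DNA through a paired domain and a homeodomain.

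None of the 7 genes had a peak within 100 kb in any list. The count was 0 of 7 for PAX6 peaks of any pool, beside 17.5% of all protein-coding genes (3918 of 22350) by the same rule. It was 0 of 7 in PAX6 pool 1, beside 4.25% of all coding genes, 0 of 7 in pool 2, beside 8.08%, and 0 of 7 in pool 3, beside 6.84%. Peaks of at least 2 pools lay near none of the 7 genes and near 1.56% of all coding genes. The IgG list gave the same count, 0 of 7, beside 8.63% of all coding genes. With 7 genes, a count of 0 allows a share of up to 42.9% by the approximate limit of 3 counts. That is above every one of these background shares, so the genes cannot be told apart from coding genes at large by this count. The 7 windows together covered 1.99 Mb on 7 different chromosomes. At the genome-wide density of 0.868 PAX6 peaks per Mb they would hold 1.73 peaks, and a count of 0 allows up to 3. For IgG, a density of 0.394 peaks per Mb corresponds to 0.784 peaks. Of the 2247 PAX6 peaks, 0 in these windows allows a share of up to 0.134%, and of the 1007 IgG peaks, up to 0.298%, by the same approximate limit. The windows are only 1.99 Mb of a genome of 2556 Mb, so these small limits do not show a shortage of peaks. Intervals and limits cover counting error only.

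**Figure D1:**
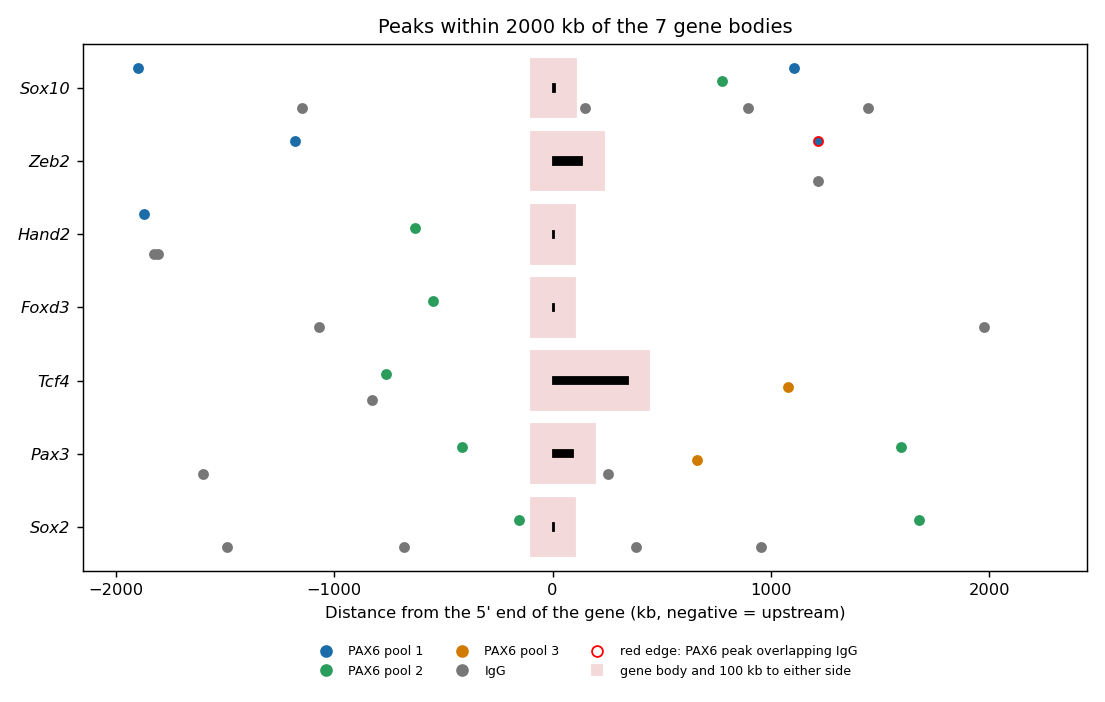
Peaks of the 4 lists around each gene. The x axis gives the distance of the peak centre from the 5′ end of the gene in kb, with negative values upstream, each row is a gene, black bars are gene bodies and pink bands the gene body with 100 kb to either side. No point of PAX6 pools 1 to 3 or of IgG falls in a pink band, and the PAX6 peak closest to a gene body is the pool 2 peak 152 kb upstream of Sox2.

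For most of the genes the distance to the closest PAX6 peak lay between the quartiles of all coding genes. The median distance to a PAX6 peak of any pool was 629 kb over the 7 genes, with a range of 152 kb to 1083 kb, against a median of 415 kb over all coding genes (quartiles 159 and 888 kb). Sox2 (152 kb) and Pax3 (415 kb) were the closest, followed by Foxd3 (547 kb), Hand2 (629 kb), Tcf4 (735 kb), Sox10 (767 kb) and Zeb2 (1083 kb). Only Sox2 lay below the lower quartile of all coding genes, 24.2% of which were closer to a PAX6 peak. For the other 6 genes this share was between 49.9% (Pax3) and 81.2% (Zeb2). Taken per list, the median distance of the 7 genes was 3321 kb for PAX6 pool 1, 629 kb for PAX6 pool 2, 3443 kb for PAX6 pool 3 and 825 kb for IgG. Over all coding genes these medians were 1908, 968 and 1226 kb in the 3 pools and 967 kb in IgG. The genes were split in most lists: 4 of the 7 lay beyond the median of the coding genes in PAX6 pool 1, 1 in pool 2 and 5 in pool 3, and 3 in IgG. For 5 of the 7 genes the closest PAX6 peak was in pool 2, the longest PAX6 list, for 1 in pool 1 and for 1 in pool 3.

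**Figure D2:**
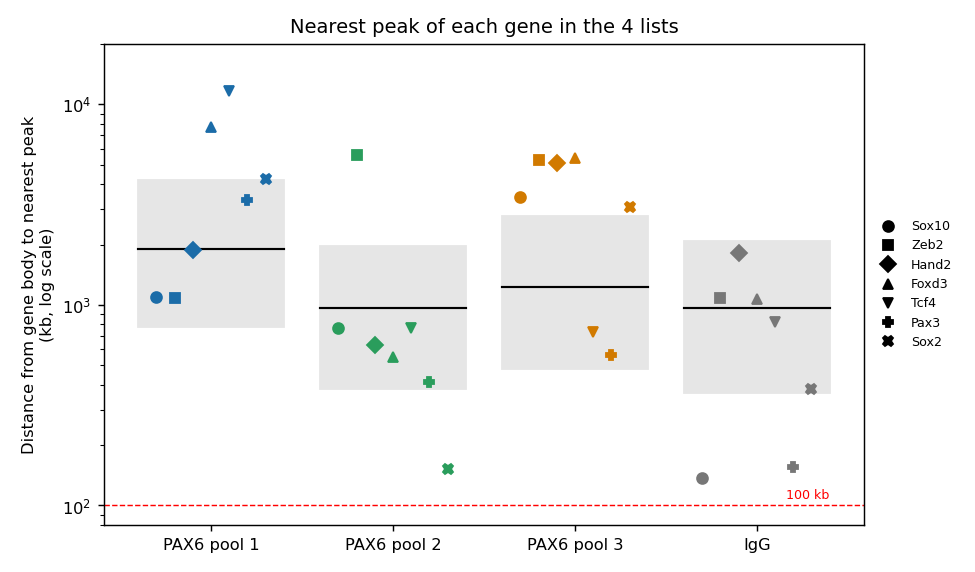
Distance from each gene body to the nearest peak in the 4 lists, in kb on a log scale. Symbols are the 7 genes, grey boxes span the quartiles of all 22350 protein-coding genes with the median as a line, and the dashed line marks 100 kb. In pool 2 only Zeb2 lies above the line of the coding genes, while in pool 3 only Tcf4 and Pax3 lie below it.

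Sox2 encodes an HMG box factor of neural progenitors that is also present in enteric progenitors and glia. It lies at chr3:34548927-34551383 on the plus strand and was 4231 kb from the closest peak of PAX6 pool 1, 152 kb from that of pool 2, 3071 kb from that of pool 3 and 382 kb from that of IgG. The pool 2 peak was the nearest of all PAX6 peaks to any of the 7 genes, and the only one within 200 kb. It spans chr3:34396657-34397194 in an intron of Sox2ot, the long non-coding RNA gene that overlaps Sox2, with no coding gene between, so Sox2 has the closest coding start site. Its score of 61.15 ranked 846 of 1032 in pool 2, in the lower part of the list. No IgG peak and no peak of another pool overlapped it. Because it is the only PAX6 peak that a slightly wider limit would give to these genes, the middle 240 bp of it are shown, plus strand of mm9, with CA/TG repeats 20 bp or longer in capitals, also where a repeat runs past the end of the stretch:
Sox2 pool 2, chr3:34396806-34397045: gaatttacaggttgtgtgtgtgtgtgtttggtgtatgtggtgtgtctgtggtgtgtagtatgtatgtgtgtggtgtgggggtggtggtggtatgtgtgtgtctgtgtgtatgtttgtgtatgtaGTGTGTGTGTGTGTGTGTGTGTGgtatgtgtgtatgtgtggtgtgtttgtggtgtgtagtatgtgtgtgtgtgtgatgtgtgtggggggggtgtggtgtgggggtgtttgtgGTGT
The stretch is made largely of TG steps, 27 of its 240 bases belong to such repeats, and the 400 bp around the centre hold no match to the paired domain core described further on. The IgG peak on the other side of Sox2, 384 kb downstream of its start, had a score of 87.36 and ranked 103 of 1007. It too has Sox2 as the closest coding start site, so that both the PAX6 and the IgG lists assign a peak to this gene when no distance limit is set.

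Sox10, at chr15:78985343-78994920 on the minus strand, encodes the SOXE factor whose loss leaves the gut without ganglia. The closest peaks were 1096 kb away in PAX6 pool 1, 767 kb away in pool 2 and 3443 kb away in pool 3, but 137 kb in IgG. IgG thus had the nearest peak to Sox10, and it was closer than any PAX6 peak. The pool 2 peak, chr15:78217702-78218194, had a score of 63.72 and ranked 763 of 1032. It lies in an intron of 1700061J05Rik, 1.25 kb from the start of that gene, and 28 coding genes stand between it and Sox10. The IgG peak had a score of 56.26 and ranked 799 of 1007, with 6 coding genes between.

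Pax3 encodes the paired box factor of the early neural crest and is the only gene of the 7 in the same family as PAX6 itself. It lies at chr1:78097842-78193709 on the minus strand. The closest peaks were 3321 kb away in PAX6 pool 1, 415 kb away in pool 2 and 564 kb away in pool 3, and 156 kb in IgG. As for Sox10, the IgG peak was nearer than any PAX6 peak. The pool 2 peak, chr1:78608250-78608672, had a score of 81.94 and ranked 325 of 1032, with 4 coding genes between it and Pax3 and the start of Acsl3 closest at 45.9 kb. The pool 3 peak had a score of 52.37, rank 700 of 724, and lay 21.9 kb from the start of Epha4, an ephrin receptor gene. The IgG peak had a score of 90.04, rank 91 of 1007, and Pax3 was the closest coding gene to it.

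Foxd3 encodes a forkhead factor that keeps neural crest cells multipotent. It lies at chr4:99322990-99325362 on the plus strand, 7728 kb from the closest peak of PAX6 pool 1, 547 kb from that of pool 2 and 5374 kb from that of pool 3, and 1070 kb from that of IgG. Of the PAX6 pools only pool 2 had a peak within 2000 kb. Its score of 84.05 ranked 212 of 1032. It was the only closest peak of the 7 that held a match to the paired domain core with up to 3 mismatches, and it had no CA/TG repeat 20 bp or longer.

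Zeb2 encodes a zinc finger and homeodomain repressor that enteric neural crest cells need to form. In humans, loss of 1 copy causes Mowat-Wilson syndrome, often with Hirschsprung disease (HSCR), in which the distal gut lacks ganglia. The gene lies at chr2:44839154-44972915 on the minus strand. The closest peaks were 1083 kb away in PAX6 pool 1, 5588 kb away in pool 2 and 5307 kb away in pool 3, and 1083 kb in IgG. The pool 1 and IgG distances were alike because these peaks overlapped. The pool 1 peak, chr2:43755916-43756419, had a score of 90.11 and ranked 18 of 491, near the top of its list, and the IgG peak, chr2:43755813-43756427, had a score of 79.98 and ranked 206 of 1007. Both lie in an intron of Arhgap15. Of all PAX6 peaks, 3.65% overlapped an IgG peak (82 of 2247), and in pool 1 7.74% (38 of 491). The other 6 closest PAX6 peaks overlapped no IgG peak, and none of the 7 overlapped a peak of another pool. The shared sequence is shown for that overlap, plus strand:
Zeb2 pool 1, chr2:43756048-43756287: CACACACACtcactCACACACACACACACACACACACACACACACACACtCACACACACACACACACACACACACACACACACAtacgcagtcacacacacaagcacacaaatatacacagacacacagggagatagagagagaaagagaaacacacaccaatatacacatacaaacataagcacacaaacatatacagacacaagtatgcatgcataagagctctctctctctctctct
Repeats 20 bp or longer took up 78 of the 240 bases. With IgG-overlapping peaks removed, the closest PAX6 peak of Zeb2 was the pool 1 peak chr2:46151317-46151811, 1179 kb upstream, with a score of 73.83 and rank 91 of 491. Zeb2 has the closest coding start site to that peak.

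Hand2 and Tcf4 encode partners of the basic helix-loop-helix class. HAND2 is needed for enteric neurons to differentiate. Hand2 lies at chr8:59799780-59803314 on the plus strand, 1871 kb from the closest peak of PAX6 pool 1, 629 kb from that of pool 2 and 5118 kb from that of pool 3, and 1806 kb from that of IgG. The pool 2 peak was the only one of any list within 1000 kb. It spans chr8:59170993-59171330 between genes, with a score of 68.98 and rank 458 of 1032, and no coding gene stands between it and Hand2, although the start of Fbxo8 is closer to it (141 kb).

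TCF4 is an E protein, the general class of partners with which tissue-specific factors such as HAND2 pair. Tcf4, at chr18:69503800-69847621 on the plus strand, is the longest of the 7 genes (344 kb) and so had the widest window, 544 kb. Its closest peaks were 11624 kb away in PAX6 pool 1, 764 kb away in pool 2 and 735 kb away in pool 3, and 825 kb in IgG. Pools 2 and 3 were on opposite sides of the gene, and the pool 2 and IgG peaks were on the same side, upstream. The pool 3 peak had a score of 67.43, rank 521 of 724, and lay between genes, 49.9 kb from the start of Stard6 and with 3 coding genes between it and Tcf4.

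Wider limits brought in few PAX6 peaks. Within 200 kb there was 1 PAX6 peak (exact Poisson 95% interval 0.0253 to 5.57) near 1 gene (Sox2), where the genome-wide density corresponds to 2.93 peaks, and IgG had 2 peaks near 2 genes (Sox10 and Pax3), where it corresponds to 1.33. Of all coding genes, 29.9% had a PAX6 peak and 15.1% an IgG peak within 200 kb. Within 500 kb the 7 genes had 2 PAX6 peaks (0.242 to 7.22), beside 6.55 at the density of the genome, and 3 IgG peaks, beside 2.97. These lay near 2 genes for PAX6 (28.6%, beside 55.9% of all coding genes) and 3 for IgG (42.9%, beside 31.7%). The count of PAX6 peaks within 1000 kb was 8 (3.45 to 15.8), beside 12.6, and that of IgG peaks 7, beside 5.73. By then 6 of the 7 genes, all but Zeb2, had a PAX6 peak (85.7%, beside 78.8% of all coding genes), and 4 had an IgG peak (57.1%, beside 51.1%). Within 2000 kb all 7 genes had at least 1 peak of each kind, beside 94.9% of all coding genes for PAX6 and 73.9% for IgG, with 15 PAX6 peaks (8.40 to 24.7), beside 24.7, and 16 IgG peaks (9.15 to 26.0), beside 11.2. The share of the 7 genes with a PAX6 peak was thus below that of all coding genes up to 500 kb and above it from 1000 kb on. At each of these limits the PAX6 peaks of all pools together were fewer than at genome density. The interval contained the number at that density or touched it with its upper bound. The limits are nested, so wider counts include the narrower ones. By pool, the counts within 1000 kb were 0 (beside 2.78), 6 (beside 5.80) and 2 (beside 4.05) in pools 1, 2 and 3. Within 2000 kb they were 5 (1.62 to 11.7, beside 5.44), 8 (3.45 to 15.8, beside 11.3) and 2 (0.242 to 7.22, beside 7.92). At this last limit, chosen after the data were seen, the interval of pool 3 lay below its number at genome density. At 1000 kb the pool 3 interval (0.242 to 7.22) contained it. The difference at 2000 kb is 1 of many nested counts by pool and limit and was not tested. When each peak was given to the coding gene with the closest start site, with no limit, the PAX6 peaks took in 2 of the 7 genes (Sox2 and Zeb2) and 7.99% of all coding genes (1775 of 22208 names), and the IgG peaks 2 of the 7 (Sox2 and Pax3) and 4.02% of all (892).

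**Figure D3:**
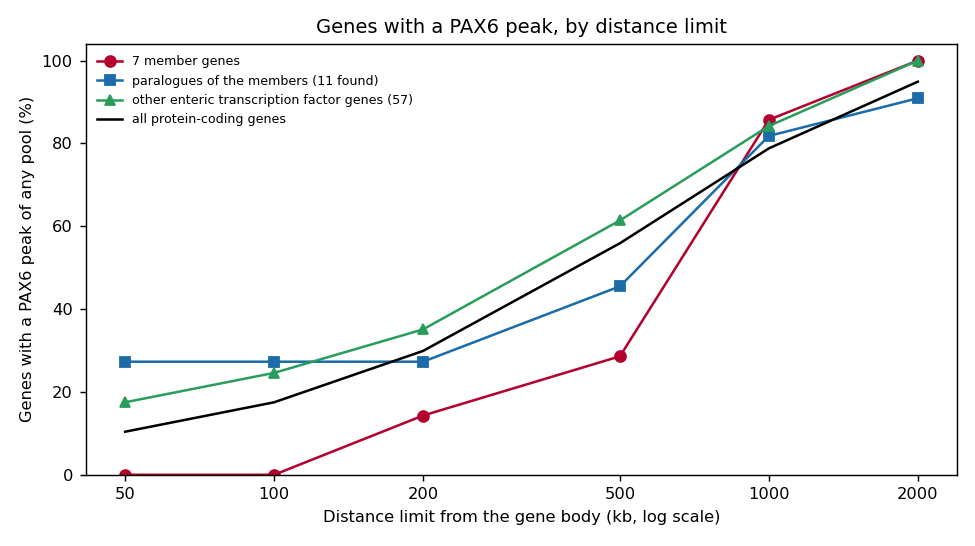
Share of genes with a PAX6 peak of any pool, in percent, against the distance limit from the gene body in kb on a log scale. Lines are the 7 genes, 11 paralogues, 57 other enteric transcription factor genes and all protein-coding genes. The 7 genes stay at 0 up to 100 kb, below the 17.5% of all coding genes, and at 1000 kb reach 85.7% (6 of 7), above the 78.8% of all coding genes.

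The closest relatives of the 7 genes were looked up by the same rule. Of 12 paralogues, 11 were found in the annotation by name (Sox1 was not), and 3 of the 11 had a PAX6 peak within 100 kb (27.3%, beside 17.5% of all coding genes), each in 1 pool. None had an IgG peak. No interval was computed for 3 of 11, so this share is not told apart from that of coding genes at large. The median distance of the 11 to a PAX6 peak was 558 kb. Foxd2, a forkhead gene as Foxd3, had a pool 3 peak 34.9 kb from the gene body, at chr4:114543883-114544114 in an intron of 9130410C08Rik, with a score of 224.76 and rank 23 of 724. Pax7, the sister gene of Pax3, had a pool 2 peak at 20.4 kb, with a score of 75.99 and rank 370 of 1032. Tcf3, an E protein gene as Tcf4, had a pool 2 peak at 5.88 kb, with a score of 51.35 and rank 1005 of 1032. None of the 3 overlapped an IgG peak. Sox8 (755 kb), Sox9 (558 kb), Sox3 (4555 kb), Zeb1 (948 kb), Hand1 (1287 kb), Foxd1 (359 kb), Foxd4 (676 kb) and Tcf12 (468 kb) had none within 100 kb, as their relatives among the 7. The whole Foxd2 peak is shown because its rank stood near the top of its list, plus strand, with the repeat in capitals:
Foxd2 pool 3, chr4:114543883-114544114: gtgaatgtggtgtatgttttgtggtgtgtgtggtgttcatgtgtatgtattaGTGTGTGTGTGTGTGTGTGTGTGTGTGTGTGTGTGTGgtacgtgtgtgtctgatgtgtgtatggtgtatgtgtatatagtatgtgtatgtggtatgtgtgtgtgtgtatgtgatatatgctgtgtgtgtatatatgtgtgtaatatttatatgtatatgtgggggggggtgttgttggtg
It is rich in TG steps, and 37 of its 232 bases lie in 1 repeat.

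Among 57 other transcription factor genes of the enteric neural crest, neurons and glia, 14 had a PAX6 peak within 100 kb (24.6%, beside 17.5% of all coding genes), 3 in pool 1, 8 in pool 2 and 6 in pool 3, and 3 had an IgG peak, Tfap2a and Ets1 among them. Their median distance to a PAX6 peak was 388 kb. Peaks of at least 2 pools were seen at 2 of them, or at 3.51% beside 1.56% of all coding genes. No interval or test was made for these shares, so they are not read as a difference from coding genes at large. Sox5, a SOXD gene with a body of 954 kb, had a peak of each pool in its introns, scoring 53.40 (pool 1), 94.53 (pool 2) and 59.76 (pool 3). Bnc2, a zinc finger gene of 403 kb, had intron peaks scoring 79.86 (pool 2) and 92.97 (pool 3). The peaks in these long genes lay at separate positions and did not overlap. The other 12 were Sox4, Gata3, Insm1, Tbx3, Gli2, Msx2, Foxo1, Zic2, Mitf, Nfib, Nkx2-1 and Pax6 itself, whose pool 2 peak lay 27.6 kb from the gene body with a score of 50.78, rank 1023 of 1032.

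The sequence under the closest peaks was set beside that of the lists as a whole. In the 400 bp around the centre, 5 of the 7 closest PAX6 peaks held a CA/TG repeat 20 bp or longer (all but those of Foxd3 and Pax3), beside 53.2% of all PAX6 peaks, 58.7% of IgG peaks and 4.35% of 400 bp stretches 5 kb to either side of the PAX6 peaks. The paired domain core was searched on both strands as TTCACGC, any base, TGA, any base and T, which is 13 bp with 11 fixed bases. With up to 3 mismatches it was in 1 of the 7 (Foxd3), beside 35.0% of all PAX6 peaks, 39.3% of IgG peaks and 47.5% of the stretches 5 kb away from PAX6 peaks. In both respects the PAX6 list stood nearer to the IgG list than to the stretches beside its own peaks. Whether the repeats had a part in the peaks was not tested.

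Summed over the 7 windows, repeats of this kind were no rarer than elsewhere. The 1.99 Mb of their windows held 291 CA/TG repeats 20 bp or longer, or 146 per Mb, beside 107 per Mb over chromosomes 1 to 19 and X. The density was 105 per Mb around Sox10, 114 around Zeb2, 123 around Hand2, 152 around Pax3, 154 around Tcf4, 188 around Sox2 and 193 around Foxd3. Of all 272807 such repeats in the genome, 0.754% lay in a PAX6 peak and 0.393% in an IgG peak. At 0.754%, 2.19 of the 291 would do so. The count was 0, also in IgG peaks, but this follows from the windows holding no peak and is not a separate result.

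**Figure D4:**
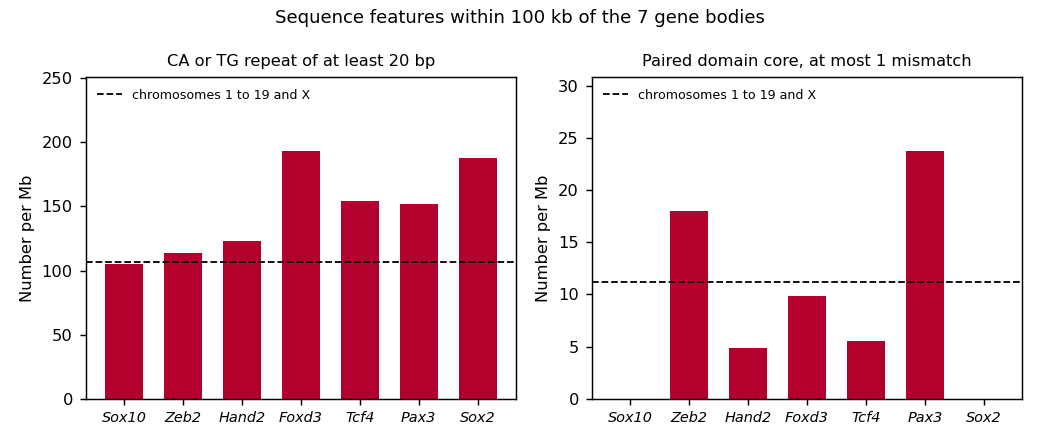
CA/TG repeats 20 bp or longer (left) and paired domain cores with at most 1 mismatch (right) in the gene body and 100 kb to either side of each gene, as number per Mb. Bars are the 7 genes and dashed lines the genome-wide density, 107 repeats and 11.2 cores per Mb. Repeats are densest around Foxd3 and Sox2, and cores around Pax3 and Zeb2, while Sox10 and Sox2 have no core. Overlapping cores on opposite strands, present only around Pax3, are counted separately.

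Close matches to the paired domain core were present near 5 of the 7 genes. With at most 1 mismatch, 19 matches at 17 separate sites lay in the windows (9.54 per Mb, beside 11.2 per Mb genome-wide): 7 around Pax3, 6 around Zeb2, 3 around Tcf4, 2 around Foxd3, 1 around Hand2 and none around Sox10 and Sox2. The matches that overlap each other, on opposite strands, all lay around Pax3, so its 7 matches stand for fewer separate sites. None of the 19 was in a PAX6 peak, which again follows from the windows holding no peak. In the whole genome 2 of 28685 such matches lay in a PAX6 peak and 2 in an IgG peak. The match with no mismatch lay 75.1 kb from a start of Pax3, upstream of the gene. The only intronic match of Zeb2, with 1 mismatch, lay 18.2 kb from a start. Both are shown with the bases that fit the core in capitals, minus strand of mm9, as examples of core sites of these genes that no peak covered:
Pax3, chr1:78268757-78268769: TTCACGCtTGAaT
Zeb2, chr2:44947714-44947726: TTtACGCaTGAaT
A match is a run of letters and not evidence of binding, and its absence from a peak says nothing about the factor.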

How the data were processed

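The 36 libraries were deposited as 4 peak lists, since the authors merged the libraries of each PAX6 pool and those of IgG, used Bowtie to align the reads to mm9 and MACS to call peaks, and the version of each was not given in the sources used here. As score the authors deposited minus 10 times the log10 of the MACS p-value, and positions are intervals on mm9 counted from 0, to whose starts 1 was added.

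Gene bodies and start sites were taken from GENCODE M1 on the NCBIM37 genome, which is mm9. A distance is that between a gene body and a peak centre. A peak overlapped another when at least 1 bp was shared. As no peak met the 100 kb rule, the planned counts of IgG overlap, repeats and cores were made on the closest PAX6 peak of each gene. The 7 genes, the lists of paralogues and of other transcription factors, and the measures were chosen with earlier results of these data known, so no test over them was run. Genes were named if they were one of the 7, had the closest coding start site to, or held, a closest peak, or belonged to a list and had a PAX6 peak; list genes without one were added for comparison. Results for some genes covered by these rules are not reported in the text. Tfap2a and Tfap2b were matched through synonyms. The distance search was tested on simulated data. Alternatives covered the distance limit, the score, IgG overlap, the anchor of the distance, each pool left out, and the repeat and core settings. Sequences were read with samtools 1.23.1 and pysam 0.24.0, values computed in Python 3.11.15 with numpy 2.4.6 and scipy 1.17.1, and plots made with matplotlib 3.10.9.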

Additional observations from a re-analysis of the deposited data

How the results depend on the processing

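The count of 0 of 7 genes with a PAX6 peak, and of 0 peaks, held at 50 kb, at scores of at least 70 and 100, with IgG-overlapping peaks removed, with any base of the peak or the start site as anchor, and without each pool in turn. It moved to 1 gene and 1 peak at 200 kb (0.296 peaks per Mb) and, at limits added after the data were seen, to 2 genes and 2 peaks at 500 kb (55.9% of all coding genes) and 6 genes and 8 peaks at 1000 kb (78.8%). The median distance of 629 kb was 3071 kb for peaks with a score of at least 70, and 629 to 1096 kb with a pool left out, the upper value without pool 2. The 3 paralogues with a peak were 1 at a score of at least 100 and 1 to 3 with a pool left out, the lowest without pool 2. The 14 other transcription factor genes were 4 at a score of at least 70, 2 at a score of at least 100 and 8 to 12 with a pool left out, the lowest without pool 2. The matching median distance and shares of all coding genes are not given for these settings. The changes in distance and in these 2 counts therefore cannot be set against coding genes at large. The paired domain core, in 1 closest peak, was in 0 with up to 2 mismatches and in 2 over whole peaks. The counts of closest peaks with a repeat and with IgG overlap stayed within 1 of their values. No paired analysis was possible because the libraries were merged into 1 list per pool before peaks were called. The depth of each list is unknown, so the lists cannot show whether weaker enrichment was present at the 7 genes.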

Other observations

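Within 2000 kb of the 7 genes the 3 PAX6 pools gave 15 peaks and the IgG list 16, although the PAX6 lists hold 2247 peaks in all and the IgG list 1007. In this neighbourhood, chosen after the data were seen and not tested, IgG peaks outnumbered PAX6 peaks at 3 genes: Sox10 had 3 PAX6 and 4 IgG peaks, Sox2 had 2 and 4, and Foxd3 had 1 and 2. PAX6 peaks outnumbered IgG peaks at 3 others: Pax3 had 3 PAX6 and 2 IgG peaks, and Zeb2 and Tcf4 each had 2 and 1. Hand2 had 2 of each. The counts per gene are too small to be read as differences between genes.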
